A study of Mus musculus with 6 samples.

Results

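The noncollagen matrix genes of cartilage were described in PDGFRα-positive cells of the mouse embryo that had been divided by an Ebf2 reporter. The set held 10 genes, chosen by symbol with earlier results of these data known: Acan, Matn1, Matn3, Matn4, Hapln1, Cnmd, Snorc, Chad, Ucma and Cytl1. Each was measured by 1 probe set that lists a single gene, so all 10 were among the 22180 genes tested. The cells came from the dorsal body wall of 129SV embryos at stage E14.5 that carried 1 Ebf2 allele with green fluorescent protein (GFP) beside a normal allele. Both groups were freshly sorted for PDGFRα, a receptor of mesenchymal cells, without culture, and they differ by GFP: 3 arrays of Ebf2(GFP)+ cells and 3 arrays of Ebf2(GFP)- cells. Ebf2 encodes a transcription factor of brown and beige fat precursors. The reporter lights up cells in which its locus is active, and the series compared these cells with the remaining PDGFRα-positive cells of the same tissue. How many embryos were pooled, and whether the replicates are separate litters, is not in the labels. The p-values therefore reflect the spread between these 6 arrays, part of which may be technical.

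Cartilage forms in the embryo when mesenchymal cells condense and switch on the transcription factors Sox9, Sox5 and Sox6. The resulting chondrocytes surround themselves with a matrix of type II, IX and XI collagen fibrils and a hydrated gel of proteoglycans. In that gel many aggrecan molecules are fixed along a hyaluronan strand by link protein, and adaptor proteins such as matrilins connect the gel with the fibrils. In the dorsal body wall at this stage, vertebrae and ribs are being laid down as cartilage.

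The cartilage matrix genes fell in the GFP-positive cells. Of the 10 genes, limma called 9 lower and 0 higher (threshold of 0.05 on the p adjusted by Benjamini-Hochberg over every gene tested), where 3.84% of all genes were called lower and 2.65% higher. The remaining gene was Ucma (adjusted p = 0.0761). The median log2 change of the 10 genes, GFP-positive minus GFP-negative, was -1.90, against 0.02 over all genes. A difference of at least 2-fold was found for 8 of the 10 genes, against 1.39% of all genes that were called and at least 2-fold lower. At least 4-fold lower were 4 of the 10. The next, Hapln1 at 3.99-fold, ranked 81 among the decreases of all 22180 genes. On all 10 genes the 3 GFP-positive arrays lay below the 3 GFP-negative arrays, a separation in this direction that 9.78% of all genes showed. Because the set was chosen with earlier results of these data known, the shares of all genes describe it and do not test it. All 10 markers of macrophages were also lower in the GFP-positive arrays, with a median log2 change of -2.52, and their part in the result was not tested. In bulk RNA, fewer cells of a type and less RNA per cell cannot be told apart. After each array was centred on its median, 749 genes were called lower and 868 higher, in place of 851 and 588, and the same 9 genes were called lower.

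**Figure D1:**
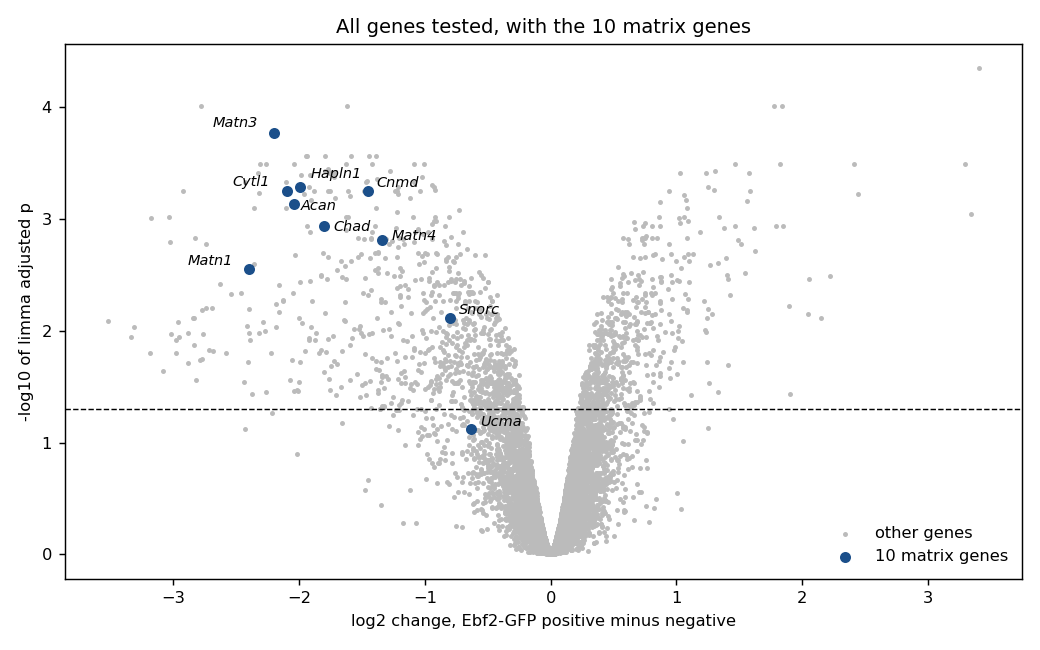
Each point is 1 of 22180 genes, with the log2 change (Ebf2-GFP positive minus negative) on the horizontal axis and the negative log10 of limma's adjusted p on the vertical axis. The dashed line marks an adjusted p of 0.05, and 9 of the 10 matrix genes (blue) lie above it on the lower side, with Ucma below it.

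Acan encodes aggrecan, the large chondroitin sulfate proteoglycan that holds water in cartilage. Its log2 level was 11.83, 11.53 and 11.49 in GFP-negative replicates 1, 2 and 3, and 9.38, 9.83 and 9.51 in GFP-positive replicates 1, 2 and 3. The groups lay 1.66 apart at their nearest arrays. The gene was 4.12-fold lower (log2 change -2.04 ± 0.14 SE, limma adjusted p = 0.000746). Hapln1, the link protein that locks aggrecan onto hyaluronan, was at 11.93, 11.91 and 11.65 in GFP-negative cells and at 9.61, 9.97 and 9.91 in GFP-positive cells. It was 3.99-fold lower, and its nearest arrays lay 1.67 apart. The 95% intervals of the log2 changes of both partners overlapped, from -2.38 to -1.71 for Acan and from -2.28 to -1.71 for Hapln1.

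The matrilins are oligomeric adaptor proteins that bridge collagen fibrils and proteoglycans, and Matn1 and Matn3 are found mostly in cartilage. Matn1 was at 11.58, 11.41 and 11.49 in GFP-negative cells and at 8.50, 9.35 and 9.43 in GFP-positive cells. It had the lowest change of the 10 genes (-2.40 ± 0.24 SE, 5.28-fold lower, limma adjusted p = 0.00281) and also the widest spread within a group, an SD of 0.52 over the GFP-positive arrays. That spread came from GFP-positive replicate 1, which was the lowest array, and the change was -2.10 without it. Matn3 was at 10.29, 10.29 and 10.25 in GFP-negative cells and at 7.90, 8.16 and 8.16 in GFP-positive cells. The group means were 10.28 ± 0.022 (SD, n = 3) and 8.08 ± 0.151 (SD, n = 3), and the gap of 2.09 between the nearest arrays was the largest of the 10 genes. Matn4, a matrilin that is also made outside cartilage, was at 9.62, 9.43 and 9.17 against 8.07, 8.14 and 8.004, a 2.53-fold difference (-1.34 ± 0.11 SE, limma adjusted p = 0.00155). Its 95% interval, -1.61 to -1.07, lay apart from those of Matn1 (-2.97 to -1.83) and Matn3 (-2.394 to -2.003), and the difference between these changes was not itself tested.

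Chad encodes chondroadherin, a leucine-rich repeat protein through which chondrocytes bind type II collagen and the matrix. It was at 10.62, 10.17 and 10.52 in GFP-negative cells and at 8.46, 8.81 and 8.64 in GFP-positive cells, 3.49-fold lower (-1.80 ± 0.14 SE, limma adjusted p = 0.00116). Cnmd encodes chondromodulin, a glycoprotein of cartilage that keeps blood vessels out. It was at 11.91, 11.75 and 11.76 against 10.38, 10.49 and 10.19, a 2.74-fold difference (-1.45 ± 0.09 SE). Both genes thus separated the groups, Chad by 1.36 and Cnmd by 1.26 between the nearest arrays. Cytl1, a small secreted protein of chondrogenic cells, was at 12.83, 12.57 and 12.46 against 10.33, 10.74 and 10.50. It was 4.28-fold lower (-2.10 ± 0.13 SE, limma adjusted p = 0.000567).

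The smallest differences were those of Snorc and Ucma. Snorc, a small transmembrane proteoglycan of chondrocytes, was at 8.28, 8.24 and 8.04 in GFP-negative cells and at 7.19, 7.50 and 7.45 in GFP-positive cells, 1.74-fold lower (-0.80 ± 0.11 SE, limma adjusted p = 0.00767). Ucma, a secreted Gla-rich protein of the upper zone of growing cartilage, was at 7.53, 7.65 and 8.05 against 6.88, 7.22 and 7.25. Its nearest arrays lay 0.28 apart, and its log2 change of -0.63 ± 0.16 SE (95% interval -1.01 to -0.25) did not pass (limma adjusted p = 0.0761). In both groups replicate 3 was the highest and replicate 1 the lowest array for Ucma. With the replicate number as a block it passed (limma adjusted p = 0.0137), which made all 10 genes lower, where 5.49% of all genes were called lower in that fit. With 1 array left out, the adjusted p of Ucma ran from 0.0843 to 0.225 in limma's test. No detection calls were used here. To mark dim genes, the 40th percentile of the means of all genes was taken, a log2 level of 6.78, and 0 of the 10 genes had any array under it.

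**Figure D2:**
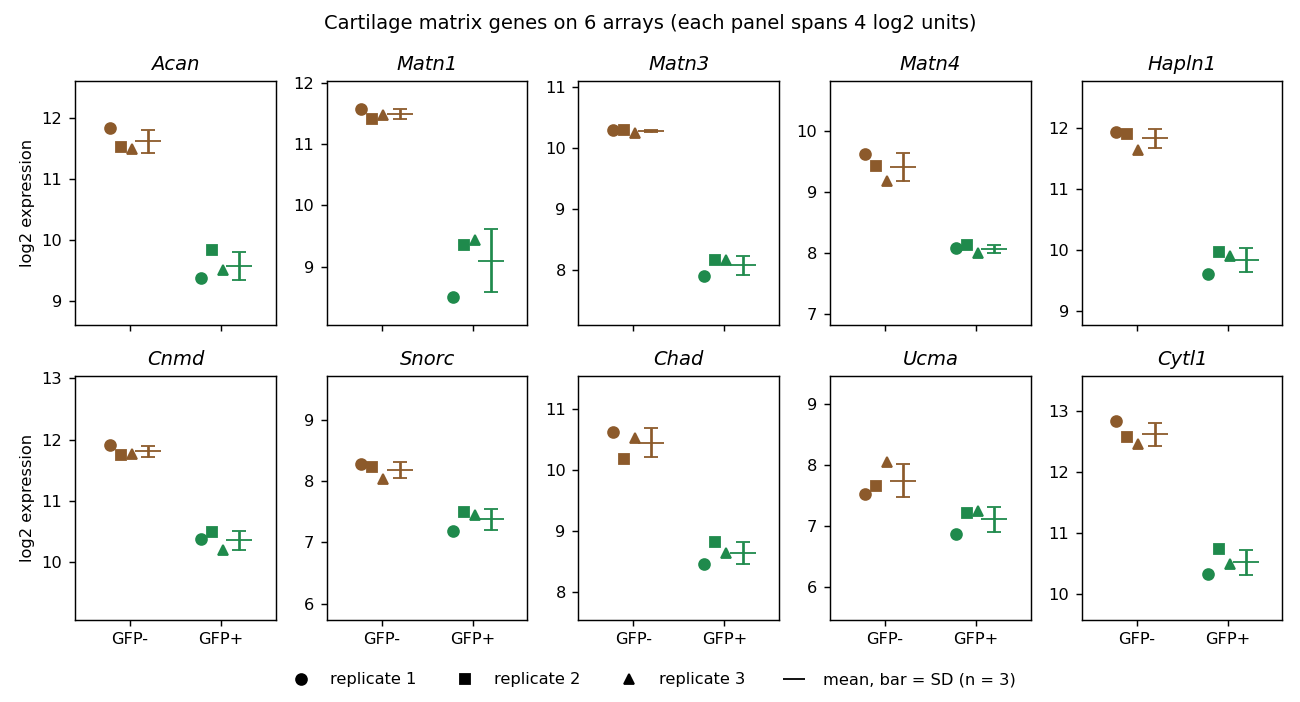
Each panel gives the log2 expression (vertical axis, 4 log2 units in every panel) of 1 matrix gene on the 3 Ebf2-GFP negative arrays (brown) and the 3 Ebf2-GFP positive arrays (green), with symbols for the replicate and the group mean with its SD (n = 3) beside them. In all 10 panels the green points lie below the brown ones, by 2.09 at the nearest arrays for Matn3 and by 0.28 for Ucma.

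Arrays of one group took similar ranks for most of the 10 genes. GFP-positive replicate 1 was the lowest array of its group for 8 of the 10 genes and GFP-negative replicate 1 was the highest of its group for 9, Ucma being the exception there. Over all genes these shares were 34.7% and 33.5%, and the difference was not tested. The mean log2 level of the 10 genes was 8.67 in GFP-positive replicate 1, against 9.02 and 8.91 in replicates 2 and 3. It was 10.64 in GFP-negative replicate 1, against 10.49 in both other arrays. Taken by replicate number, the median difference of the 10 genes was -2.24, -1.53 and -1.81 for numbers 1, 2 and 3. All 10 genes were lower in each of these 3 comparisons. The separation of the groups, which 9.78% of all genes showed, already entails this. Without GFP-positive replicate 1, 9 of the 10 genes were still called lower.

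Promoter windows were read for 9 of the 10 genes from RefSeq (GRCm38.p6), with 10 windows in all because Matn4 has a pair of start sites. The 250 bases before each start were searched on both strands for the SOX-type cores ACAAAG and ACAAT and for the TATA box TATAAA, which do not overlap one another in these windows. ACAAAG was found in 0 of the 10 windows, against 16.5% of all 32851 promoter windows of that length. ACAAT was found in 1 of the 10, that of Hapln1, against 27.7%, and TATAAA in 1, that of Chad, against 12.4%. These are matches of letters in a short window and say nothing of a factor's binding. The windows differed in base composition, with G and C making up 74.4% of the Acan window and 54% of the Cnmd window, against a median of 52.4% over all promoters. Below are 4 windows, 5′ to 3′ on the gene's strand and ending just before the start: Acan for its base composition, Matn1 for its lowest log2 change, and Hapln1 and Chad for the matches, which are in capitals.
Acan, chr7:79052976-79053225, plus strand: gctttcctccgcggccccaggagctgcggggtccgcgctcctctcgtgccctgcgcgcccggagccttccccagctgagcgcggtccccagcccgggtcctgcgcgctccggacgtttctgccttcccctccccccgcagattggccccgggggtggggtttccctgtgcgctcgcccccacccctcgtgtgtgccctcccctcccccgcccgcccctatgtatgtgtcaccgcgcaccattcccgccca
Matn1, chr4:130944135-130944384, plus strand: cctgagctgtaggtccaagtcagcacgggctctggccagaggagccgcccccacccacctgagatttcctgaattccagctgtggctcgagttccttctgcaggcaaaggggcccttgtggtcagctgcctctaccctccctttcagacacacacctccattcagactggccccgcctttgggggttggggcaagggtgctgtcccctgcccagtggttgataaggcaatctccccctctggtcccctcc
Hapln1, chr13:89540386-89540635, plus strand: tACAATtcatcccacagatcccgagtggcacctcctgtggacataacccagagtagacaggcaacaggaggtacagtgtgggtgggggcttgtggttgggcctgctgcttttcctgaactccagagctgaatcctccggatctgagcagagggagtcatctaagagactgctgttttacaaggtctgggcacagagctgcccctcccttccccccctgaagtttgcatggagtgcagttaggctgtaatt
Chad, chr11:94564797-94565046, plus strand: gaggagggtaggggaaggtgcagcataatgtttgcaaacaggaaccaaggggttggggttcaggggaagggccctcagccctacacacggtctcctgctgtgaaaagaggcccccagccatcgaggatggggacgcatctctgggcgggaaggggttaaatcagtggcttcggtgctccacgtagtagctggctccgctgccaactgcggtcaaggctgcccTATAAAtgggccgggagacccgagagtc

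Most relatives of the same protein families were not called lower. Of 9 related genes, 2 were lower and 1 higher, with a median log2 change of -0.10. Of all genes, 3.84% were called lower and 2.65% higher. Without overlap of the groups, 4 of the 9 were lower and 2 higher, where 2169 and 2721 of all 22180 genes were. Vcan encodes versican, the aggrecan relative of loose mesenchyme, and its log2 level was 12.37, 12.33 and 12.34 in GFP-negative cells and 12.68, 12.69 and 12.70 in GFP-positive cells. It was 1.27-fold higher (0.35 ± 0.05 SE, limma adjusted p = 0.00867), the opposite direction to Acan. Matn2, a matrilin found widely in connective tissue, was at 11.42, 11.86 and 12.05 against 11.51, 11.61 and 11.91, and its groups overlapped (-0.10 ± 0.18 SE, 95% interval -0.52 to 0.32, limma adjusted p = 0.845). Tnmd encodes tenomodulin, the relative of chondromodulin in tendon. It was at 9.34, 10.39 and 10.10 in GFP-negative cells and at 10.79, 11.39 and 10.81 in GFP-positive cells, without overlap. The log2 change was 1.05 ± 0.29 SE, which missed the threshold (limma adjusted p = 0.0974) but passed with the replicate block (0.0143).

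The aggrecan relatives of the nervous system, Ncan (neurocan) and Bcan (brevican), were called lower, with log2 changes of -0.62 and -0.43. These calls ended without 4 and 5 of the 6 arrays in turn (limma adjusted p up to 0.106 and 0.125), and the GFP-positive mean of Bcan lay under the mark of dim genes. The count of 2 lower relatives was 0 without GFP-negative replicate 2 or GFP-positive replicate 1 or 3, and 1 without each other array. Among link proteins, Hapln3 had a change of -0.51 that did not pass (limma adjusted p = 0.142, or 0.0444 with the replicate block), and Hapln2 and Hapln4 had changes of -0.06 and -0.02 at dim levels. Chadl, the relative of chondroadherin, had a change of -0.40 (limma adjusted p = 0.131).

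The difference between a cartilage gene and its relative was compared within arrays in 7 pairs. The difference Acan minus Vcan changed by -2.39 on the log2 scale from GFP-negative to GFP-positive cells, and Cnmd minus Tnmd by -2.51. Set against Matn2, the matrilins Matn1, Matn3 and Matn4 changed by -2.30, -2.10 and -1.24. Hapln1 minus Hapln3 changed by -1.49 and Chad minus Chadl by -1.41. In all 7 pairs the arrays of the groups did not overlap. The cartilage gene of every pair also separated the groups by itself. The two-sided exact permutation p was 0.1 (0.1 adjusted over the 7 pairs), the smallest that 3 arrays against 3 allow. This test could therefore not pass the threshold used for calls, and no conclusion is drawn from it. The pairs of Matn1, Matn3 and Matn4 share Matn2, so the 7 pairs are not independent comparisons.

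**Figure D3:**
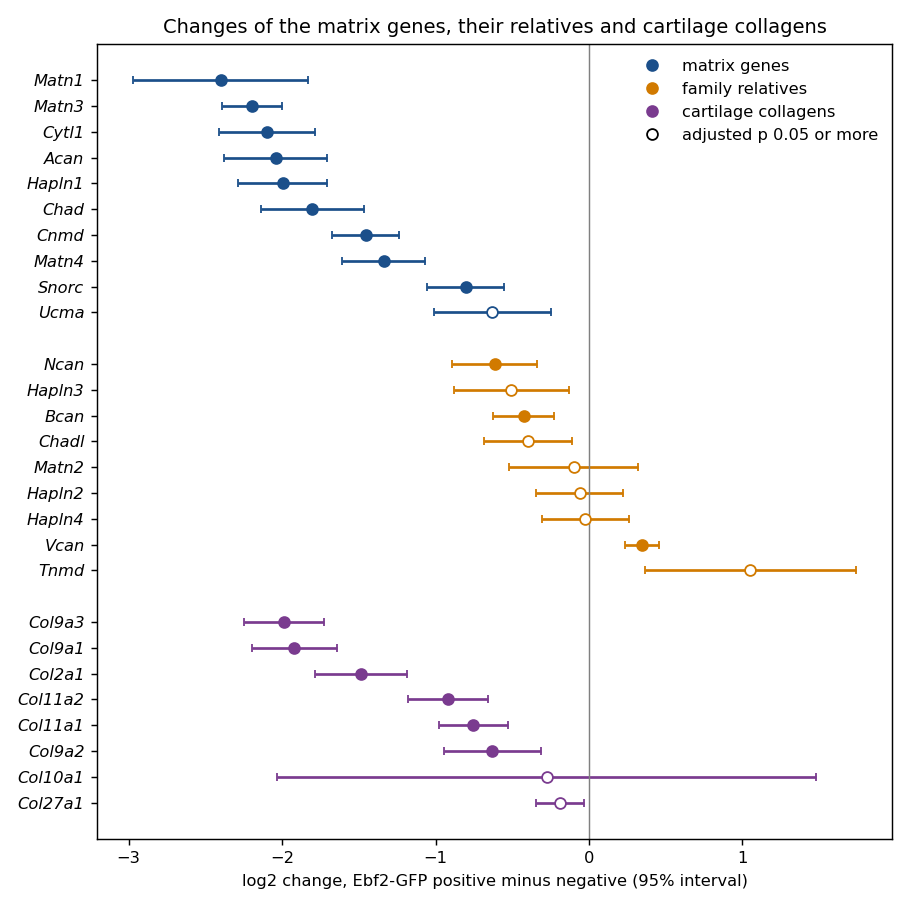
The log2 change (Ebf2-GFP positive minus negative) of each gene is plotted with its 95% interval from limma, for the 10 matrix genes (blue), 9 relatives of their families (orange) and 8 cartilage collagens (purple). Open points did not pass the adjusted p of 0.05, and the blue points lie between -2.40 and -0.63, whereas Vcan and Tnmd lie above 0.

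The collagens of cartilage fell beside these genes, with 6 of 8 called lower and 0 higher and a median of -0.84. Col9a3 and Col9a1, chains of the fibril-associated type IX collagen, were 3.97-fold and 3.79-fold lower. Col2a1, the main fibril collagen of cartilage, was at 12.54, 12.11 and 12.13 in GFP-negative cells and at 10.70, 10.89 and 10.73 in GFP-positive cells, 2.80-fold lower (-1.49 ± 0.13 SE, limma adjusted p = 0.00153). Col11a2 and Col11a1 of type XI collagen had changes of -0.92 and -0.75, and Col9a2 one of -0.63, whose call ended with any 1 array left out (limma adjusted p up to 0.144). Col27a1 did not pass (-0.19, limma adjusted p = 0.182). Col10a1, the collagen of hypertrophic chondrocytes, did not pass either (-0.28 ± 0.74 SE, limma adjusted p = 0.898). Its level was 6.82, 8.33 and 9.21 in GFP-negative replicates 1, 2 and 3 and 6.61, 8.13 and 8.79 in GFP-positive replicates 1, 2 and 3, so arrays of the same number resembled each other more than arrays of the same group.

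Transcription factors of cartilage were lower in part. Of 11 measured, 5 were called lower and 0 higher, with a median of -0.08. With the replicate block 5 were lower and 1 higher. That gene was Trps1, a GATA-type repressor of chondrocyte maturation, whose change of 0.44 ± 0.12 SE had a limma adjusted p of 0.108, of 0.043 with the block and of 0.011 without GFP-negative replicate 1. Sox9, the master regulator of chondrocytes, was at 11.29, 11.07 and 11.02 in GFP-negative cells and at 10.70, 10.70 and 10.62 in GFP-positive cells, 1.37-fold lower (-0.45 ± 0.08 SE, limma adjusted p = 0.0229). Sox6 and Sox5, its partners on matrix genes, had changes of -1.35 and -0.62. Runx3, a runt factor of maturing cartilage, was 2.01-fold lower (limma adjusted p = 0.00242), with a GFP-positive mean under the mark of dim genes. The call of Runx3 held without each array in turn. Those of Sox9 and Sox6 each ended without 4 arrays (limma adjusted p up to 0.0935 and 0.115), and that of Sox5 without 5 (up to 0.13). The other factor called lower was Foxa3 (log2 change -0.43, limma adjusted p = 0.0345), whose call ended without 5 arrays (up to 0.131). Without GFP-negative replicates 1, 2 and 3 in turn, the count of 5 was 3, 1 and 4. Without GFP-positive replicates 1, 2 and 3 in turn, the count was 1, 2 and 1. The sclerotome factors Pax1, Pax9 and Nkx3-2 had differences of 0.35, 0.40 and 0.01, all short of the threshold (limma adjusted p = 0.397, 0.539 and 0.975).

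Other matrix genes listed for cartilage were mostly lower as well, with 9 of 14 called lower and 1 higher and a median of -0.94. The smallest p-values were those of Scrg1 (4.11-fold lower), Mia (3.76-fold), Susd5 (3.83-fold) and Otor (3.55-fold). Scrg1 is a secreted protein induced in chondrogenesis, and Mia and Otor encode small secreted proteins of one family that are made by cartilage. The count of 9 was 6 without GFP-positive replicate 1. Fibin, a secreted protein of early limb mesenchyme, was 1.30-fold higher (limma adjusted p = 0.0361), a call that ended with any 1 array left out (up to 0.13).

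The machinery that puts sulfated chains on aggrecan was mostly not called. Of its 22 genes, 3 were lower and 0 higher, beside 3.84% and 2.65% of all genes, and the median was 0.04. The genes called lower were Xylt1, which starts the chains (1.85-fold), Chst11, a sulfotransferase of chondroitin (1.68-fold), and Papss2, which makes the sulfate donor (1.51-fold). The call of Papss2 ended without any 1 GFP-positive array (limma adjusted p up to 0.0949), which left a count of 2 in each case. Among 13 genes of aggrecan binding and breakdown, 0 were lower and 2 higher, beside those shares of all genes (median 0.15). The aggrecan-cleaving protease gene Adamts15 was 2.02-fold higher (1.02 ± 0.15 SE, limma adjusted p = 0.0116), and Timp3, an inhibitor of such proteases, was 1.38-fold higher (limma adjusted p = 0.0187). Adamts15 did not pass without GFP-positive replicate 1 or 3 (0.0543 and 0.0546), and Timp3 did not without any 1 array other than GFP-positive replicate 3 (up to 0.0835), so this count was 0 without GFP-positive replicate 1 and 1 without each other array. Adamts8 had a change of 0.39 (limma adjusted p = 0.11, or 0.0191 with the replicate block). The 3 measured genes of hyaluronan synthesis did not pass, Has2 with a change of 0.34 (limma adjusted p = 0.143).

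**Figure D4:**
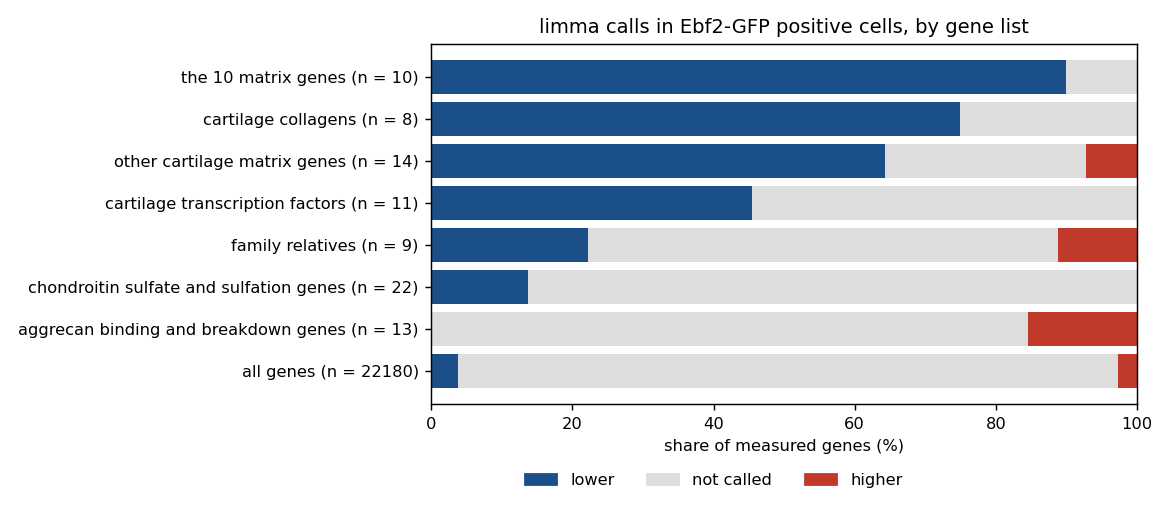
Bars give the share of measured genes (horizontal axis, percent) that limma called lower (blue), called higher (red) or did not call (grey) in Ebf2-GFP positive cells, for the 10 matrix genes, 6 related lists and all genes. The share called lower runs from 9 of 10 matrix genes and 6 of 8 collagens to 0 of 13 genes of aggrecan binding and breakdown, beside 3.84% of all genes.

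Over the 6 arrays, the genes outside the set whose levels ran closest to the mean of the 10 genes were Col9a3, Prkcb, Slc38a3, Vav3 and Cbr2, at Pearson r of 0.999, 0.996, 0.996, 0.995 and 0.995. They were taken from 295 genes above the mark of dim genes with a log2 change of -1 or less. Such correlations over 6 arrays mostly restate the difference between the groups, which all candidates share, and Col9a3 is itself a cartilage collagen.

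Ebf2 followed the sort, with arrays between 8.16 and 9.21 in GFP-negative cells and between 11.93 and 12.04 in GFP-positive cells, and all 8 fibroblast markers, Pdgfra among them, lay above the mark of dim genes in both groups, with 1 of the 8, Lum, called lower. Among the lists for other cells, only that of macrophages was called lower throughout. All 10 macrophage markers were lower in GFP-positive cells, and their summed linear signal (2 raised to the log2 value) ran from 11745 to 22279 in GFP-negative arrays and from 1991 to 4157 in GFP-positive arrays. Within GFP-negative cells this sum was highest in replicate 3, whereas 9 of the 10 matrix genes were highest in replicate 1. In GFP-positive cells this sum was lowest in replicate 1, as were 8 of the 10 matrix genes. Of 6 Schwann cell and neural crest markers 2 were lower, Fabp7 (log2 change -1.64) and Sox10 (-0.62). Their list had sums from 4640 to 5962 against 1730 to 2439, most of which was the signal of Fabp7. Its mean log2 level was 11.99 in GFP-negative and 10.34 in GFP-positive cells, and that of the next marker, S100b, 8.43 and 8.11. The sums of the other lists overlapped between the groups, with 1 of 8 endothelial markers lower and 1 higher, 1 of 8 muscle markers higher and 0 of 7 notochord markers called. The part of these other lists in the decrease of the matrix genes was not tested either. Array signals do not reach 0. The macrophage markers under the mark of dim genes were 0 of 10 by the GFP-negative mean and 2 of 10 by the GFP-positive mean, and among notochord markers Noto, Shh and Krt19 were under it in both groups.

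**Figure D5:**
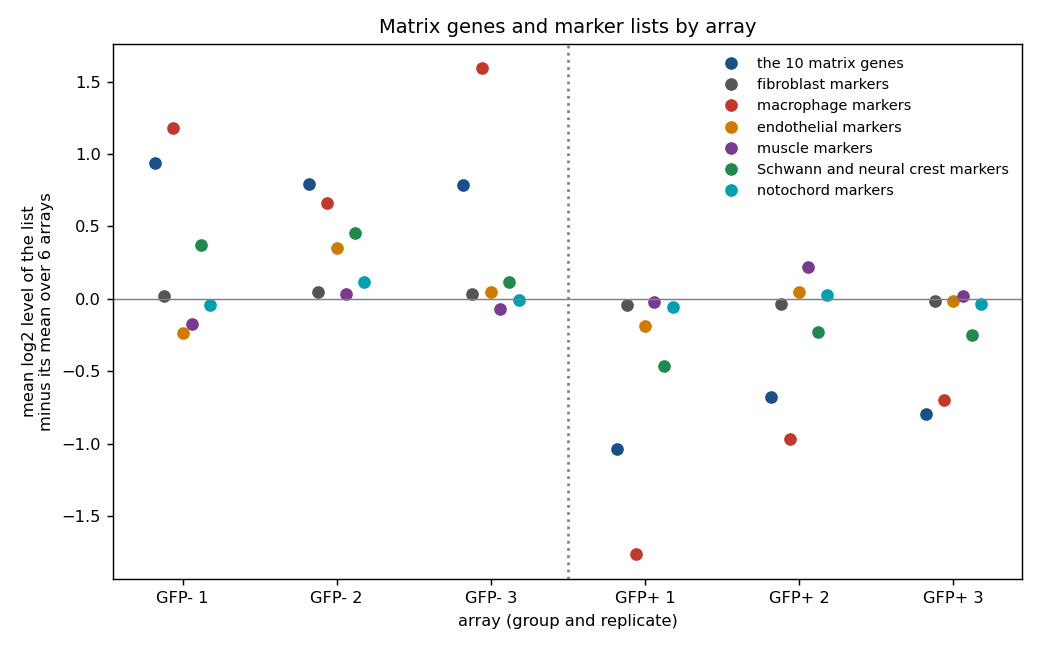
The mean log2 level of each list minus its own mean over the 6 arrays (vertical axis) is plotted for each array (horizontal axis), for the 10 matrix genes and 6 marker lists. Matrix genes (blue) and macrophage markers (red) lie above 0 on the 3 GFP-negative arrays and below 0 on the 3 GFP-positive arrays, with different orders of the arrays within the GFP-negative group.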

How the data were processed

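The authors deposited log2 expression values of 41345 Affymetrix probe sets. RMA and limma are named in the submitters' processing notes. Versions of both, library files and filters were not given in the sources used here. The log2 scale was read from the values (3.41 to 14.32, array medians 6.657 to 6.712), and since RMA normalizes arrays to one another before probes are summarised, a shift of most genes could be hidden. Per the labels' protocols, tissue was digested with collagenase and dispase and RNA was isolated with TRIzol and a column.

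Genes were named from the 23521 probe sets that list 1 gene in the platform table (1814 list several, 15820 none, 190 are controls), and a gene with several probe sets was read from the one with the highest 6-array mean. The 22180 genes were fitted with lmFit and eBayes (limma 3.58.1, R 4.3.3) on 6 arrays, 3 per group, and a gene was called at a Benjamini-Hochberg adjusted p under 0.05. Errors are SD over arrays or limma's moderated SE. The method was also run on simulated data with independent noise for each array. These held no replicate effect and so did not test the pairing of arrays. Precision is limited by having 3 arrays per group.

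The labels number replicates alike in both groups. Deviations from group means correlated at 0.314 to 0.519 for same-numbered arrays and at -0.384 to -0.024 for others. Centring on group means forces positive and negative correlations to offset each other, so the negative ones are not separate evidence of pairing. The numbers were taken to pair arrays, on the data alone, and values with a replicate block are printed beside calls it changed. All limma values not marked with the block are from fits without it. The main fit called 851 genes lower, against 1218 with the block. The other alternatives were quantile normalization, median centring, leaving out dim genes, other uses of probe sets, eBayes with trend or robust, array weights, a threshold of 0.01, and leaving out each array. The members and lists were chosen with earlier results of these data known. All 10 genes are named, with all relatives and collagens, up to 4 genes of smallest p or against the direction in other lists, and the 5 genes closest in pattern. Further genes (Pax1, Pax9, Nkx3-2, Foxa3, Has2, Adamts8 and Trps1) were chosen after their values were seen. Lists held 80 related genes, of which 77 were measured, and the others were not analysed here. Plots were drawn with matplotlib 3.10.9.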

Additional observations from a re-analysis of the deposited data

How the results depend on the processing

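All 9 calls among the matrix genes held under each of the 16 alternatives run, and 0 of the 10 genes was called higher under any of them. Ucma passed under 1 alternative, the replicate block. Without 1 array the median change of the 10 genes ran from -1.98 to -1.80 and the count of calls stayed at 9. Over the 6 related lists together, 25 of 77 genes were lower and 4 higher. The replicate block gave 26 lower and 7 higher, a threshold of 0.01 gave 14 lower and 1 higher, and leaving out 1 array gave 14 to 20 lower and 1 to 3 higher. With fewer arrays, fewer genes were called over all genes too, such as 388 lower without GFP-positive replicate 1 in place of 851. Of the 29 calls in these lists, 15 held without each array in turn. Of the genes called in the main fit or in an alternative, 0 changed direction between them. Changes of direction in genes without a call were not counted. The replicate block changed the calls of Ucma, Tnmd, Hapln3, Trps1 and Adamts8 (limma adjusted p = 0.0137, 0.0143, 0.0444, 0.043 and 0.0191) and no other call among these genes. Signal over background limits what an array shows of small differences, and the GFP-positive means of Ucma and Snorc, 7.11 and 7.38, lay closest to the mark of dim genes.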
